A study of Mus musculus with 4 samples.

Results

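The genes of the C/EBP family (CCAAT/enhancer-binding proteins) were followed through single sorted cells of mouse bone. The listed symbols were Cebpa, Cebpb, Cebpd, Cebpe, Cebpg and Cebpz, matched to the symbols of the deposited gene tables, which hold 27998 genes. Of the 6 listed genes, 5 had a row. Cebpd had none by symbol or identifier and was not analysed here. The members were chosen by their levels by cell group and label in these same cells, so all values of them below are descriptions, and no test is made.

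The study captured single cells on the 10x Genomics Chromium from mice that, per the series design text, carried a CreER recombinase driven by Cdh5. The sort took cells without lineage markers that carried CD31, VE-cadherin and endomucin on their surface. Sca-1 split them into a negative gate, labelled sinusoidal, and a positive gate, labelled type H, a name for a class of bone capillary. Each gate had 1 library of genotype ID1 -/- ID3-/-, here "labelled knockout", and 1 library of genotype ID1 +/+ ID3+/-, here "control", which the titles call WT. Per the labels' protocols, tamoxifen, meant to delete Id1, was given by intraperitoneal injection on 5 consecutive days in all 4 groups, the controls included. The sources used here give neither the age or strain of the mice nor how many stand behind a library. Cdh5 drives the recombinase in endothelium, while the cells measured were mostly blood cells. Since each group is 1 library, no difference below has a replicate check. Intervals are 95% and hold counting error alone: they leave out how cells, animals or libraries vary.

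C/EBP proteins are bZIP transcription factors: a basic region holds the DNA, and a leucine zipper pairs each protein with a partner from the same or another bZIP family. C/EBPα, from Cebpa, is needed for the step from multipotent progenitors to granulocyte and monocyte precursors, C/EBPβ, from Cebpb, for granulocyte production under stress and for monocytes, and C/EBPε, from Cebpe, for late granulocyte maturation and the genes of secondary granules. C/EBPγ, from Cebpg, lacks an activation domain of its own and pairs with other family members and with ATF4. Cebpz shares the name but encodes a CCAAT-binding protein outside the bZIP class, related to proteins of ribosome assembly.

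The coding sequence of the basic region is shown for the 4 bZIP members with counts, because it is what makes them a family. Each line is 87 bases of the GENCODE M21 transcript of longest coding sequence (GRCm38), 5′ to 3′. Capitals mark the 27 bases that code for the conserved core of the basic region, found by a search of the annotated reading frames.
Cebpa: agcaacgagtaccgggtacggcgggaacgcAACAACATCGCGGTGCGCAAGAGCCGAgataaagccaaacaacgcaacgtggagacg
Cebpb: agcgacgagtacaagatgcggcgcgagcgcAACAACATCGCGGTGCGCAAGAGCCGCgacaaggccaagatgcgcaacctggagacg
Cebpe: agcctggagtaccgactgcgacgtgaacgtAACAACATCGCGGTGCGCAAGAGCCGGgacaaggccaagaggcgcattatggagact
Cebpg: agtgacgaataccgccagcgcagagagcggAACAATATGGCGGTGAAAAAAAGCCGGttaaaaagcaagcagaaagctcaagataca
The stretch lies at chr7:35120265-35120351 (plus strand) in the single exon of Cebpa, at chr2:167689685-167689771 (plus strand) in the single exon of Cebpb, at chr14:54710689-54710775 (minus strand) in exon 2 of 2 of Cebpe, and at chr7:35050567-35050653 (minus strand) in exon 2 of 2 of Cebpg. Over these 87 bases Cebpa and Cebpb were identical at 82.8%, Cebpb and Cebpe at 80.5%, and Cebpa and Cebpe at 77.0%. Cebpg stood apart, with 57.5% to 58.6% identity to the other 3. The same search found no match in Cebpz.

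The genes are spread over the genome, with 1 neighbouring pair. Cebpa (ENSMUSG00000034957) occupies chr7:35119293-35121928 on the plus strand, and Cebpg (ENSMUSG00000056216) chr7:35046422-35056573 on the minus strand, with 62.7 kb between their ends. Cebpb (ENSMUSG00000056501) occupies chr2:167688915-167690418, Cebpe (ENSMUSG00000052435) chr14:54710360-54712174 and Cebpz (ENSMUSG00000024081) chr17:78919006-78937066. In GENCODE M21 the exons of Cebpb share 312 bases with Tmem189 on the opposite strand, and those of Cebpz 171 bases with Cebpzos on the opposite strand. The sources do not say whether reads were assigned by strand, so reads from these overlaps cannot be told apart, and the levels of Cebpb and Cebpz are uncertain to that extent.

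Cebpb is the member whose level differed most between labels, so the 250 bases before its start are shown (RefSeq, GRCm38.p6, chr2:167688665-167688914, plus strand). Capitals mark TGACG on either strand, the first 5 bases of the cyclic AMP response element TGACGTCA.
Cebpb upstream: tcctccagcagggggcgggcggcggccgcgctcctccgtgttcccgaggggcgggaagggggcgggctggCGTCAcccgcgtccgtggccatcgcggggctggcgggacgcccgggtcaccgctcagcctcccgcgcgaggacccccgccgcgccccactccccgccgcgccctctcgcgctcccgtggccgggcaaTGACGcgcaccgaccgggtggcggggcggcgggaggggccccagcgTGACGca
RefSeq windows of 300 bases, from 250 before to 50 after the start, were searched on both strands. TGACG occurred 3 times in that of Cebpb, at positions -180, -53 and -7, and occurs at least once in 20.8% of all 32851 such windows. The full TGACGTCA (1.79% of windows), the C/EBP pattern TTGCNNAA (10.8%) and the AP-1 pattern TGANTCA (7.81%) had no match. GGGCGG, the GC box, had 5 matches, some overlapping (35.7% of windows hold it), and TATAAA 1 match, 22 bases after the start (13.6%). The window was 80.7% G and C, against a median of 52.7%. A match is a description of letters, not of binding.

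Nearly all cells carried blood cell genes, and the defining endothelial genes were scarce. Cdh5, which encodes VE-cadherin, gave 4 to 18 UMIs (unique molecular identifiers, the counted molecules) per library, and Kdr 1 to 18. The 15 listed endothelial genes summed to 89.6 and 81.4 CPM (UMIs of a gene per 1000000 UMIs) in the control and the labelled knockout of the sinusoidal gate, with 4 genes at 0 in each, and to 443 and 459 CPM in those of the type H gate, with 1 and 0 at 0. At least 2 of these genes were seen in 11.1%, 22.2%, 62.5% and 54.9% of cells in the same order. Some of them, such as Eng and Esam, are also made by blood stem cells. At least 2 of 8 pan-haematopoietic genes were seen in 93.4% to 98.2% of cells. Of 3641 barcodes 3567 were kept, between 351 and 1857 per library, with median depths of 5597 to 15428 UMIs per cell and totals of 3179782 to 11023619 UMIs in the kept cells. Id3, a targeted gene, was higher in both libraries labelled knockout, at 84.8 against 54.7 CPM in the sinusoidal and 84.9 against 33 CPM in the type H gate. Id1, the other targeted gene, stood at 26.3 against 26.1 CPM and 2.99 against 4.08 CPM. These values put the labels in doubt, and every direction below is taken from the labels as given. Id3 also differed between sets of cells within the controls, as given below. Pairs of libraries shared 4 cell barcodes in all.

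Cells were grouped into 21 clusters without the C/EBP genes and named "-like" from marker lists. Clusters are numbered by size, and a named class can hold several. Each cluster was summed over the 4 libraries for the levels that follow. The type H gate held mostly stem cell-like, multipotent progenitor-like and plasma cell-like clusters. Granulocyte precursor-like and monocyte-like clusters came almost wholly from the sinusoidal gate.

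Over whole libraries the members split into those that followed the gate and those that did not. Cebpe stood at 198 CPM in the sinusoidal control and 206 CPM in the sinusoidal labelled knockout, against 5.85 and 5.08 CPM in the type H control and labelled knockout. Cebpa stood at 85.9, 86.6, 23.8 and 21.7 CPM in the same order of libraries, and Cebpz at 56.9, 54.3, 94 and 87.7 CPM. Cebpg was nearly level at 41.8, 38.4, 43.3 and 45.1 CPM. Cebpb was the exception, at 178, 109, 28.7 and 132 CPM: low in the type H control alone. Each gate held its own mix of cell kinds, and the levels by cluster follow.

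**Figure D1:**
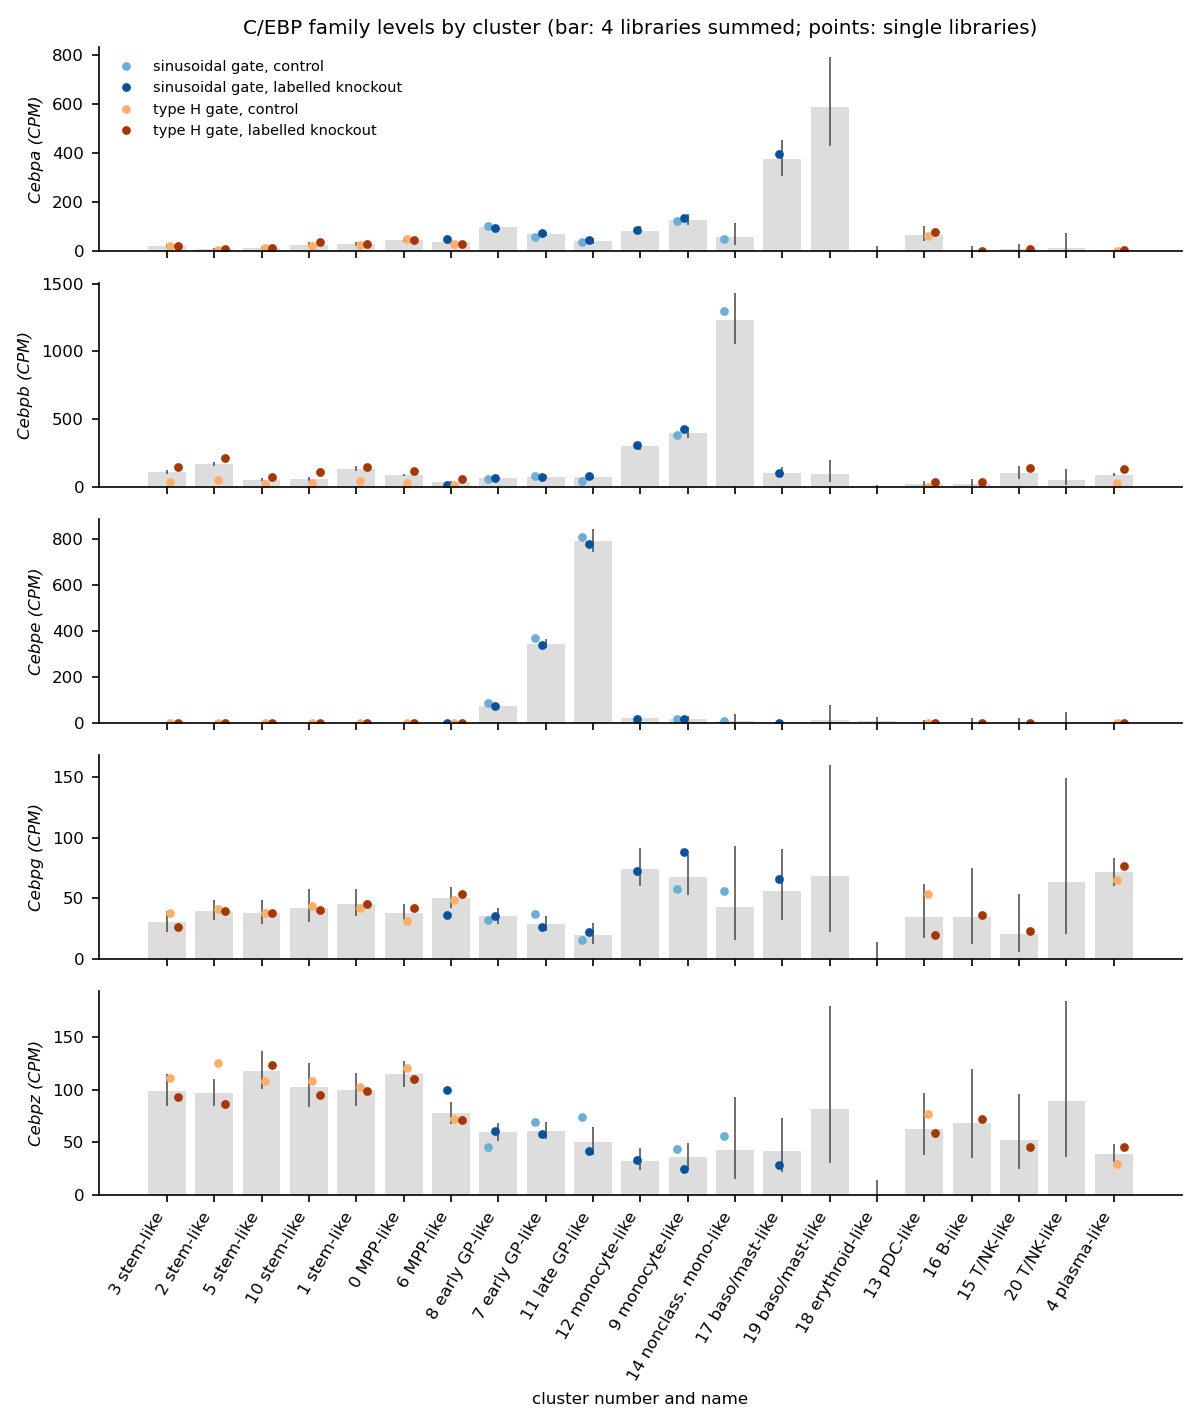
Level of 5 C/EBP family genes (CPM) in 21 clusters. Bars are the 4 libraries summed with exact Poisson 95% intervals, and points are single libraries with at least 20 cells in the cluster. Cebpe stood at 794 CPM in late granulocyte precursor-like cluster 11, Cebpb at 1235 CPM in nonclassical monocyte-like cluster 14 and Cebpa at 589 CPM in basophil and mast cell-like cluster 19, while Cebpg and Cebpz were spread over most clusters.

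Cebpa, the factor of myeloid commitment, was low in stem cell-like cells, higher in multipotent progenitor-like cluster 0 and early granulocyte precursor-like cells, and highest in basophil and mast cell-like cells. It stood at 6.39 CPM (3.65 to 10.4) in stem cell-like cluster 2, at 10.6 in cluster 5, 18.1 in cluster 3, 24.8 in cluster 10 and 26 (18.5 to 35.3) in cluster 1. Multipotent progenitor-like cluster 0, led by Sox4 and Cd34, held 43.1 CPM (36.1 to 51.0), an interval above those of 4 stem cell-like clusters and overlapping that of cluster 10 (15.9 to 36.8). Multipotent progenitor-like cluster 6 held 34.7 CPM (28.3 to 42.1), which overlaps the intervals of stem cell-like clusters 1 and 10. Early granulocyte precursor-like clusters 8 and 7 held more, at 94.9 (84.6 to 106) and 67.9 CPM (59.4 to 77.2), and late granulocyte precursor-like cluster 11 less, at 39.1 CPM (28.8 to 52.1). Monocyte-like clusters 9 and 12 held 126 (105 to 150) and 81.8 CPM (66.5 to 99.5), and nonclassical monocyte-like cluster 14 held 57.1 CPM (24.6 to 112).

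Basophil and mast cell-like clusters 17 and 19 held the most Cebpa, with 107 UMIs in 27 cells and 43 UMIs in 22 cells. Their levels were 373 CPM (306 to 451) and 589 CPM (426 to 793), and these intervals overlap each other but not that of the next cluster. In cluster 17, led by the basophil protease genes Prss34 and Mcpt8, every cell had a Cebpa UMI. Cells that gave nearly none were plasma cell-like (2 UMIs in 279 cells, 0.927 CPM) and B lymphoid-like (0 UMIs in 50 cells, upper limit of the level 21.1 CPM). Plasmacytoid dendritic cell-like cluster 13 held 65.8 CPM (40.7 to 101), from 21 UMIs in 68 cells. In the order of Cebpa levels over the 21 clusters, only the step from cluster 17 to cluster 9 was between intervals that do not overlap.

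Cebpb, the factor of monocytes and of stress granulopoiesis, followed another order. Nonclassical monocyte-like cluster 14 held 1235 CPM (1058 to 1433), from 173 UMIs in 53 cells. Monocyte-like clusters 9 and 12 followed at 400 CPM (362 to 441) and 302 CPM (272 to 334), then stem cell-like cluster 2 at 169 CPM (153 to 186), and each of these 4 intervals was apart from the next in order. Early granulocyte precursor-like clusters 7 and 8 and late cluster 11 stood close together at 75.5, 65 and 73.3 CPM. Plasmacytoid dendritic cell-like and B lymphoid-like cells held 18.8 and 22.9 CPM, from 6 and 4 UMIs. Erythroid-like cluster 18 held 0 Cebpb UMIs in 27 cells (upper limit of the level 14 CPM). For clusters of the type H gate these sums mix libraries that differ by label, as given below.

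Cebpe, the factor of late granulocyte maturation, was seen almost only in granulocyte precursor-like cells. Its level was 73.2 CPM (64.3 to 83.1) in early cluster 8, 346 CPM (327 to 367) in early cluster 7 and 794 CPM (744 to 846) in late cluster 11. These 3 intervals were apart from each other, and among the other clusters only that of cluster 19, from 1 UMI, reached up to that of cluster 8. All 5 stem cell-like clusters held 0 Cebpe UMIs, with upper limits of the level of 1.47 to 3.8 CPM, and multipotent progenitor-like cluster 0 held 3 (0.958 CPM). Monocyte-like clusters 12 and 9 held 20.4 and 18 CPM. Thinned to 2000 UMIs per cell, so that depth is equal, Cebpe was seen in 70% of cells of cluster 11, 53% of cluster 7, 11.4% of cluster 8 and 1.75% of monocyte-like cluster 9. Without thinning these shares were 97.8%, 98%, 37.5% and 8.72%.

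Cebpg, the inhibitory partner, varied over a narrow range. Its level lay between 20 and 74.4 CPM in 20 of the 21 clusters, and no neighbours in its order had intervals apart. It was highest in monocyte-like cluster 12 at 74.4 CPM (59.9 to 91.4) and plasma cell-like cluster 4 at 71.4 CPM (60.6 to 83.6), and low in late granulocyte precursor-like cluster 11 at 20 CPM (12.8 to 29.7). The interval of plasma cell-like cells, a secretory kind, was apart from that of multipotent progenitor-like cluster 0, at 38.3 CPM (31.8 to 45.8). The erythroid-like cluster held 0 UMIs of Cebpg in 27 cells (upper limit 14 CPM).

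Cebpz was highest in the 5 stem cell-like clusters and multipotent progenitor-like cluster 0. Stem cell-like cluster 5 held 118 CPM (101 to 137) and multipotent progenitor-like cluster 0 held 115 CPM (103 to 127), and the other 4 stem cell-like clusters lay between 96.6 and 103 CPM. Multipotent progenitor-like cluster 6 held 77.6 CPM (67.9 to 88.2), and T and NK-like cluster 20 held 89.3 CPM (35.9 to 184). Early granulocyte precursor-like clusters held 60.8 and 59.5 CPM, late cluster 11 held 50 CPM (38.1 to 64.3), plasma cell-like cells 39.4 CPM (31.5 to 48.7) and monocyte-like cluster 12 held 32.7 CPM (23.4 to 44.6). Erythroid-like cells again held 0 UMIs. The counts of Cebpz may hold reads of its antisense neighbour Cebpzos.

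Across the 17 clusters of at least 30 cells the members' levels were only loosely alike. Pearson correlations of log2(CPM + 20) between pairs ran from -0.44 for Cebpb with Cebpz to 0.41 for Cebpa with Cebpe. Cebpz was negatively correlated with each of the other 4. The clusters share libraries and differ in depth, so these are descriptions. Among 8878 genes, those most like Cebpa over the 17 clusters were Arl11 (0.93), Fes, Rbm8a2, Scarb1 and Gpx1. Xdh (0.91), Zbtb7b, Metrnl, Atg4c and Lrp1 were most like Cebpb. For Cebpe they were Cldn15 (0.98), Hdc, Wfdc21, Gm1604a and Prom1. For Cebpg they were DHRSX (0.83), Tmem65, Ibtk, Ggh and Lmf1, and for Cebpz Pik3ip1 (0.96), Tlcd2, Msrb2, Homez and A230050P20Rik. A rank correlation named other genes for the most part, sharing 2, 1, 0, 1 and 3 of the 5 in the same order of members.

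**Figure D2:**
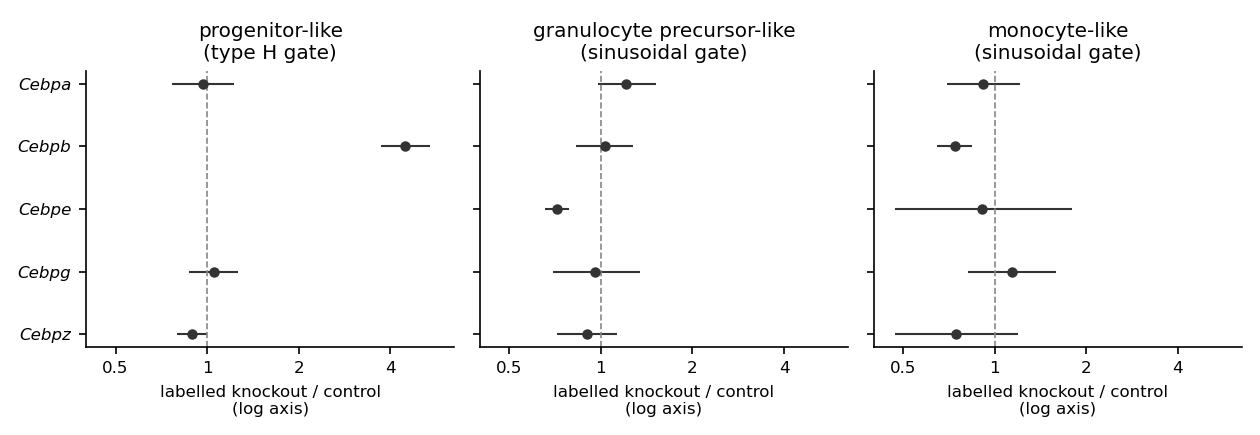
Ratio of summed UMIs, library labelled knockout over control, for each measured C/EBP family gene in 3 comparisons, on a log axis. Points are ratios and bars exact 95% intervals for counting error; the dashed line is a ratio of 1. Cebpb in progenitor-like cells, at 4.48, is the value past 1.5-fold, and Cebpe has too few UMIs to be drawn there.

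The first comparison set the labels side by side in type H progenitor-like cells, 1572 labelled knockout and 638 control. A single member of the 4 with at least 20 UMIs was past 1.5-fold. Over all 11717 genes tested, 7.92% were past that fold in either direction, 4.98% higher and 2.94% lower. Nothing is read from the members' count, since these values were known when the list was made. Cebpb stood at 29.1 CPM (24.3 to 34.5) in control cells and 130 CPM (123 to 138) in labelled-knockout cells, from 131 and 1193 UMIs. The median depth was 6440 and 5567 UMIs per cell. The levels' intervals are far apart, and the ratio was 4.48 (3.74 to 5.41). With the labels turned the ratio would be its inverse.

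The other measured members had ratios near 1. Cebpa stood at 24.4 CPM in control cells and 23.6 CPM in labelled-knockout cells, a ratio of 0.966 (0.764 to 1.23). Cebpg stood at 39.7 and 41.6 CPM, a ratio of 1.05 (0.874 to 1.26). Cebpz stood at 108 and 95.8 CPM, and its ratio of 0.890 (0.796 to 0.997) is near the median of all genes, which was -0.042 as a log2 ratio against -0.17 for Cebpz. Cebpe gave 1 and 3 UMIs, and no ratio is read from them. Tmem189, whose exons overlap those of Cebpb on the other strand, stood at 21.5 and 23.5 CPM, a ratio of 1.09 (0.854 to 1.40). The part of reads from the overlap in the Cebpb difference was not tested.

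The Cebpb difference was present in each type H cluster with at least 20 Cebpb UMIs. In multipotent progenitor-like cluster 0 it stood at 27.2 CPM in control cells and 120 CPM in labelled-knockout cells, a ratio of 4.4 (3.01 to 6.67). Stem cell-like cluster 2 had 49.8 and 213 CPM, a ratio of 4.28 (3.01 to 6.27). Stem cell-like clusters 3, 5 and 10 had ratios of 3.83 (2.43 to 6.36), 3.63 (1.91 to 7.61) and 4.10 (2.27 to 7.73). Stem cell-like cluster 1 had 3.49 (1.80 to 7.74), and multipotent progenitor-like cluster 6 had 5.19 (2.62 to 11.7). In clusters 3, 5, 10, 1 and 6 the control cells gave 21, 11, 17, 9 and 9 Cebpb UMIs. Cluster 1 also differed in depth, with medians of 5295 UMIs in 43 control and 2815.5 UMIs in 384 labelled-knockout cells. The first leading gene of cluster 6 is Pf4, a gene of megakaryocytes and platelets, followed by Cenpf, a gene of dividing cells. Its name rests on 9 of 12 listed markers, of which 0 are among its 10 leading genes.

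Plasma cell-like cluster 4, cells of a distant lineage, showed the same at 25.0 CPM in control cells and 129 CPM in labelled-knockout cells, a ratio of 5.16 (3.24 to 8.65). The 8 ratios thus ran from 3.49 to 5.19 and all 8 intervals lay above 1. Of all genes tested in a cluster, the share at least 1.5-fold higher was 6.71% in cluster 0, 13.3% in cluster 1, 7.97% in cluster 2, 7.61% in cluster 3, 17.6% in cluster 4, 7.48% in cluster 5, 7.74% in cluster 6 and 9.70% in cluster 10. The share at least 1.5-fold lower was 7.03%, 17.4%, 8.65%, 9.27%, 5.37%, 9.80%, 9.02% and 11.4% in the same order. Across these 8 clusters the control level itself varied from 11.6 to 49.8 CPM. Plasmacytoid dendritic cell-like cells, with 25 cells in each library, gave 0 Cebpb UMIs in the control and 4 in the labelled knockout, too few for a ratio (14.5% of genes were at least 1.5-fold higher there and 9.13% lower).

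The other members showed no such ratio across these clusters. Cebpg had ratios of 0.708 to 1.32 over 8 clusters, 4 above 1 and 4 below, and every interval held 1. Cebpa, measured in 5, had 0.871 to 1.79, again with every interval holding 1. Cebpz had 0.691 to 1.52 over 8 clusters, 2 above 1 and 6 below. Its interval lay below 1 in stem cell-like cluster 2, at 125 CPM in control and 86.1 CPM in labelled-knockout cells (0.691, 0.528 to 0.911).

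**Figure D3:**
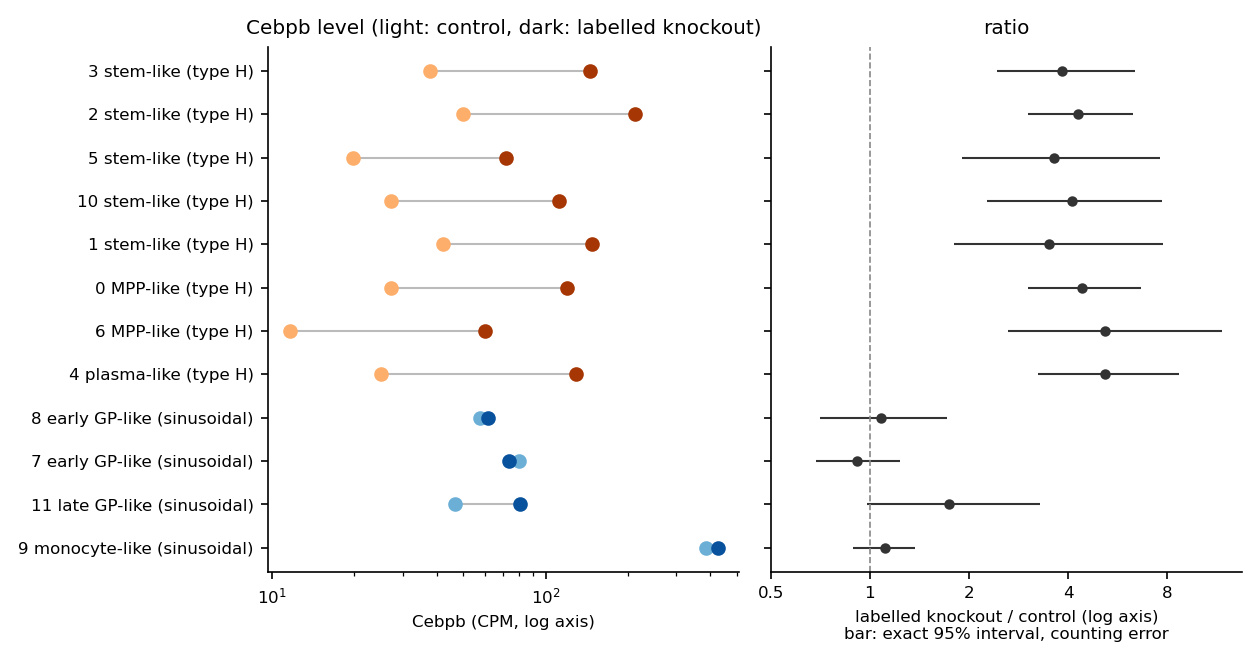
Cebpb by cluster and label. Left, level in CPM on a log axis, light points the control and dark points the labelled knockout; right, their ratio on a log axis with exact 95% intervals for counting error and a dashed line at 1. The 8 type H clusters lie between 3.49 and 5.19, and the 4 sinusoidal clusters between 0.914 and 1.74 with intervals that hold 1.

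Clusters of the sinusoidal gate did not show that ratio. Cebpb stood at 80.1 CPM in control cells and 73.2 CPM in labelled-knockout cells in early granulocyte precursor-like cluster 7, a ratio of 0.914 (0.688 to 1.23). Cluster 8 had 1.08 (0.705 to 1.71) and monocyte-like cluster 9 had 1.11 (0.890 to 1.37). Late granulocyte precursor-like cluster 11 had the highest, 1.74 (0.979 to 3.28), from 15 and 64 UMIs. Only the interval of cluster 11 reached 1.8, the lowest of the 8 lower limits in the type H gate. The share of all genes at least 1.5-fold higher was 7.77% in cluster 7, 12.6% in cluster 8, 9.44% in cluster 9 and 23.7% in cluster 11, and the share at least 1.5-fold lower 11.2%, 12.9%, 11.1% and 10.8%.

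Cluster 6 held cells of all 4 libraries, so Cebpb can be given for 1 cluster in both gates. Its cells differed between gates. Klf2, a Krüppel-like factor gene, stood at 27.9 and 53.3 CPM in the sinusoidal control and labelled knockout. It stood at 148 and 202 CPM in those of the type H gate. Cebpb stood at 9.29 CPM (1.12 to 33.6) in 12 cells of the sinusoidal control, from 2 UMIs. In 25 cells of the sinusoidal labelled knockout it stood at 9.70 CPM (2.64 to 24.8), from 4 UMIs. In 56 cells of the type H control it stood at 11.6 CPM (5.30 to 22.0). In 140 cells of the type H labelled knockout it stood at 60.2 CPM (48.6 to 73.6). The fourth library is thus apart from the other 3, which overlap. In the same cells Id3 stood at 41.8, 102, 54.1 and 91.6 CPM, higher in both libraries labelled knockout than in both controls, though the interval of the sinusoidal control (19.1 to 79.3) overlaps both. Jund, described below, stood at 88.2, 269, 219 and 403 CPM. Cebpa stood at 92.9 (56.7 to 143), 46.1, 27.1 and 27.5 CPM, with the interval of the sinusoidal control above those of both type H libraries.

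More cells held a Cebpb UMI in the type H labelled knockout, and more held several. In progenitor-like cells the share with a UMI was 18.2% of 638 control and 42.5% of 1572 labelled-knockout cells. Thinned to 2000 UMIs per cell the shares were 5.87% of 630 and 21.2% of 1500 cells, with 8 and 72 shallower cells left out. Cells with 3 or more UMIs were 0.157% of control and 7.76% of labelled-knockout cells, and the most in a cell was 3 against 11. As a gauge of free RNA, plasmacytoid dendritic cell-like cells of the same libraries, at median depths of 4585 and 4243 UMIs, held a Cebpb UMI in 0 of 25 and 3 of 25 cells. In the labelled knockout T and NK-like cells held one in 13 of 39 cells (138 CPM, 82.1 to 219). B lymphoid-like cells there held one in 4 of 30 cells (36.3 CPM, 9.88 to 92.8). The type H control held 10 cells of each of these kinds, too few to compare. The part of free RNA in these values was not tested.

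Each library mixed cells of both sexes, and Cebpb is given for each set of cells. Progenitor-like cells with UMIs of Xist but of no Y-linked gene held it at 31.3 CPM in control and 125 CPM in labelled-knockout cells (ratio 3.98, 2.54 to 6.41). Cells with Y-linked UMIs but none of Xist held 26.8 and 136 CPM (5.09, 3.98 to 6.60), and cells with neither held 32.5 and 124 CPM (3.82, 2.63 to 5.74). The few cells with both, 11 control and 21 labelled knockout, held 35.1 and 63.8 CPM (1.82, 0.539 to 7.83), an interval that holds 1. Cebpa had ratios of 1.86 (0.861 to 4.13), 0.941 and 0.855 in the first 3 sets, the first of them from 31 UMIs. Id3 in those 3 sets stood at 2.32 (2 UMIs), 38.7 and 52.1 CPM in control cells. In labelled-knockout cells it stood at 87.3, 90.4 and 89.3 CPM. In the sinusoidal control, cells with Xist alone held 2.51 CPM when granulocyte precursor-like and 8.42 CPM when monocyte-like, from 1 UMI each. Those with Y-linked UMIs alone held 23 and 119 CPM. The control libraries were thus not uniform in Id3, and the reason was not tested.

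Of 4971 genes with at least 20 UMIs in each of those 8 type H clusters, 5 (0.101%) were at least 1.5-fold higher in all 8, and 1 (0.0201%) at least 1.5-fold lower. The 5 were Cebpb, Id3, the AP-1 subunit gene Jund and the ribosomal protein genes Rpl23a and Rpl35, and the 1 was Serinc3. They are named after their values were seen. The other 5 did not share one pattern in the sinusoidal gate. Id3 was higher there too (1.19 to 3.74 over 4 clusters) and Serinc3 lower too (0.395 to 0.527, against 0.383 to 0.645 in the type H gate). Rpl23a and Rpl35 were the other way round, at 0.316 to 0.679 and 0.495 to 0.972. Jund lay between 0.830 and 1.61, on both sides of 1 as Cebpb did.

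**Figure D4:**
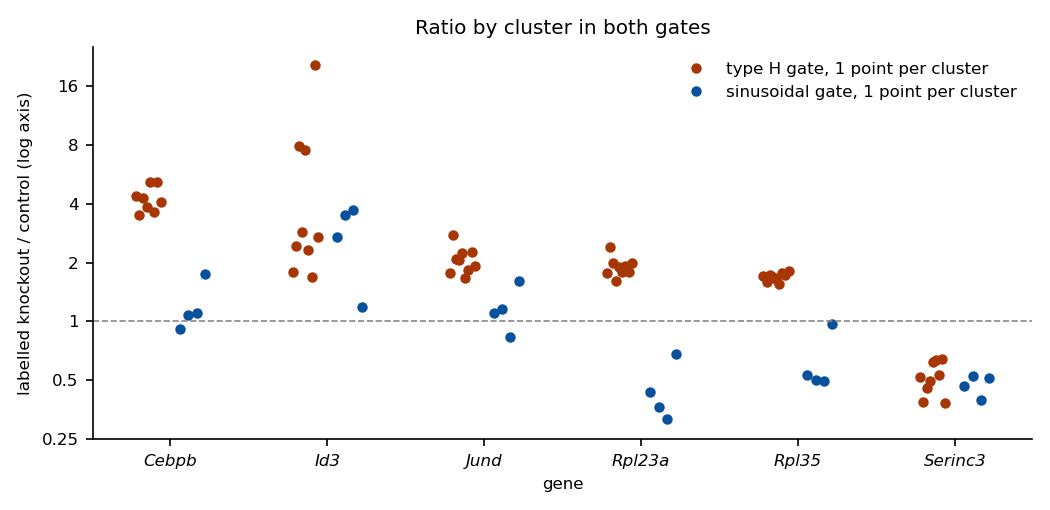
Ratio, library labelled knockout over control, of the 6 genes at least 1.5-fold apart in all 8 type H clusters, on a log axis. Each point is 1 cluster with at least 20 UMIs of the gene; the dashed line is a ratio of 1. Cebpb lies at 3.49 to 5.19 in the type H and 0.914 to 1.74 in the sinusoidal gate, while Serinc3 lies below 1 in both.

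Immediate-early genes, which answer stimuli and handling within minutes, also tended higher in the type H labelled knockout. Of the 18 listed, all measured, 9 were at least 1.5-fold higher and 0 lower in progenitor-like cells, and the list's median log2 ratio was 0.58 against -0.042 over all genes. Atf3, a bZIP repressor, stood at 5.99 CPM in control cells and 16.6 in the labelled knockout (ratio 2.77, 1.83 to 4.34), Jund at 443 and 928 CPM (2.09) and the Krüppel-like factor Klf2 at 229 and 443 CPM (1.94). The plasma cell-like cluster had 9 of 18 higher and 0 lower, with a median of 0.58 against 0.14 over all genes, where 17.6% of all genes were higher. By cluster the count of listed genes higher ranged from 2 of 16 in cluster 6 to 11 of 16 in cluster 10, while the ratio of Cebpb was 5.19 and 4.10. Clusters 3 and 5 had 1 listed gene lower each, and the others 0. The part of these genes in the Cebpb difference was not tested.

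In the plasma cell-like cluster, 4 of 4 measured primary granule and early myeloid genes were also higher, with a median log2 ratio of 1.83 against 0.14 over all genes. Lyz2, the lysozyme gene of myeloid cells, stood there at 27.5 CPM in control cells and 123 CPM in labelled-knockout cells (4.47, 2.85 to 7.33), and the cytokine receptor gene Csf2rb at 12.5 and 37.5 CPM. In progenitor-like cells Lyz2 stood at 306 and 312 CPM (1.02, 0.957 to 1.09). Of that list 9 genes were measured there, with 2 higher and 0 lower, where 4.98% of all genes were higher. The 2 were Elane (3.44, 1.34 to 11.3, from 5 and 35 UMIs) and Csf2ra (1.66, 1.35 to 2.05). The median log2 ratio of the list was 0.35 there, against -0.042 over all genes. The part of myeloid RNA in the Cebpb difference of plasma cell-like cells was not tested.

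The other lists around the family gave smaller counts in progenitor-like cells, where 4.98% of all genes were higher and 2.94% lower. Of 19 measured bZIP partners and related factors 5 were higher and 0 lower, with Maf (1.84, 1.29 to 2.66) beside Atf3 and Jund. The immediate-early list also holds Atf3, Jund and other genes of this list, so its count is not separate from this one. Of 18 measured upstream and protein-level regulators of C/EBP, such as cytokine receptors, 1 was higher and 0 lower. The 1 was Rfwd2, which encodes the ubiquitin ligase COP1 (1.59, 1.22 to 2.10), and nothing is read from that count. Of 15 myeloid transcription factors 4 were higher, among them Nr4a1 (1.74) and Egr1 (1.66), which the immediate-early list also holds. Inflammatory genes bound by C/EBPβ and C/EBPδ were sparse, with 10 of 18 measured, 3 higher and 2 lower. Il10 had a ratio of 3.02 (1.35 to 7.96) from 7 and 43 UMIs and Cxcl2 2 (1.16 to 3.62).

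Granule genes were barely seen in these progenitors. Of 7 measured secondary and tertiary granule genes 4 were higher, among them Camp at 3.33 and 10.6 CPM and Ngp at 4.44 and 8.07 CPM. With all libraries summed, Camp and Ngp stood at 32808 and 28781 CPM in cluster 11. In plasmacytoid dendritic cell-like cells, which do not make these granule proteins, they stood at 62.7 and 47 CPM. Those 68 cells include 14 control and 4 labelled-knockout cells of the sinusoidal gate, so their sum is not a level of the type H gate alone. Of 17 measured stress targets of ATF4 and C/EBPγ 0 were higher and 1 lower, of 18 nucleolar ribosome assembly genes 0 and 0, and of 4 Nf-y subunit and Hsp70 genes 0 and 0. Of 6 measured Id and E protein genes 1 was higher, Id3 (2.61, 2.19 to 3.12).

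The second comparison was in sinusoidal granulocyte precursor-like cells, 360 labelled knockout and 96 control. None of the 5 members, all measured, was past 1.5-fold, where 18.7% of 9567 genes were (9.94% higher and 8.73% lower). Cebpe stood at 381 CPM (351 to 413) in the control and 273 CPM (260 to 287) in labelled-knockout cells, a ratio of 0.717 (0.653 to 0.788). Cebpa stood at 64.6 and 78.3 CPM (1.21, 0.979 to 1.52), Cebpb at 67.1 and 68.9 CPM (1.03, 0.829 to 1.28), Cebpg at 31.3 and 30 CPM (0.957) and Cebpz at 63.9 and 57.4 CPM (0.898).

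The libraries also differed in the clusters they held. Cluster 8, the cluster of the class with the least Cebpe, made up 153 of the 360 labelled-knockout and 22 of the 96 control cells. Within clusters Cebpe stood at 84.9 CPM in control cells and 72 CPM in labelled-knockout cells in that cluster (0.848, 0.595 to 1.24), at 369 and 338 CPM in cluster 7 (0.914, 0.802 to 1.04) and at 812 and 782 CPM in cluster 11 (0.964, 0.833 to 1.12). All 3 ratios were below 1 and all 3 intervals hold 1. Combined within clusters the log2 ratio of Cebpe was -0.11, against -0.48 for the class. Thinned to 2000 UMIs per cell that of the class was -0.81, past the fold. Cebpz in cluster 11 stood at 74.4 and 41.6 CPM (0.560, 0.321 to 0.990), from 24 and 33 UMIs, the only interval of the family in a sinusoidal cluster that left out 1.

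The genes of secondary and tertiary granules, among them known targets of C/EBPε, were lower by a wider margin. Of 16 listed genes 14 were measured, and these 14 were all at least 1.5-fold lower in the labelled knockout, where 8.73% of all genes were, and their median log2 ratio was -1.51 against 0.044 over all genes. Ltf, the lactoferrin gene, stood at 1150 CPM in control cells and 113 CPM in labelled-knockout cells (0.0984, 0.0901 to 0.107), the gelatinase gene Mmp9 at 22.6 and 1.14 CPM, and Ly6g at 63.9 and 6.32 CPM. Of 11 measured primary granule and early myeloid genes 0 were higher and 2 lower, Lyz2 at 3579 and 1360 CPM and Csf2ra at 115 and 73.5 CPM. Among myeloid transcription factors the monocyte and dendritic cell factor gene Irf8 was higher, at 137 and 276 CPM (2.02, 1.75 to 2.33), and Lmo4 lower (0.662). Within late precursor-like cluster 11 alone, where the ratio of Cebpe was 0.964, 12 of 14 measured granule genes were still lower and 0 higher, with a median of -1.26 against 0.21 over all genes. In cluster 7 the counts were 3 lower and 2 higher of 10, and in cluster 8 they were 4 lower and 0 higher of 8. In cluster 11 the primary granule and early myeloid list went the other way, with 6 of 10 higher and 1 lower, where 23.7% of all genes were higher. Markers of free granule RNA also differed between these libraries, with values given below.

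Along a series of rising late granule share the 3 main factors took different courses. The 456 cells were cut into 5 ranges by the share of a cell's UMIs from 9 late granule genes, none of them a C/EBP gene. The ranges are parts of a continuous score, not types. Ranges 1 and 2 held 0 and 3 control cells, and 78 and 65 of their 91 cells each were of cluster 8. F13a1, a monocyte gene, is among the leading genes of cluster 8. Whether these ranges are an earlier stage of the same lineage was not tested. Of range 4, 88 of 91 cells were of cluster 7, and of range 5, 81 of 92 were of cluster 11. Position in the series thus goes with cluster and, in the first 2 ranges, with library. Cebpe rose through the 5 ranges at 93.5, 126, 224, 386 and 768 CPM, with intervals of 79.4 to 109 in the first and 721 to 817 in the fifth. In the labelled knockout alone it stood at 93.5, 132, 249, 394 and 753 CPM. Cebpa held at 91.1, 89.3 and 84.5 CPM and then fell to 59.5 and 44.0 CPM (33.3 to 56.9). Cebpb stood at 50.4, 53.4, 65.8, 86.8 and 94.8 CPM, with the first interval (40.2 to 62.3) below the fifth (78.8 to 113). Irf8 went from 571 to 20.8 CPM over the same ranges, and Elane, the neutrophil elastase gene, rose from 7448 to 24873 CPM in range 4 and stood at 17805 CPM in range 5.

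**Figure D5:**
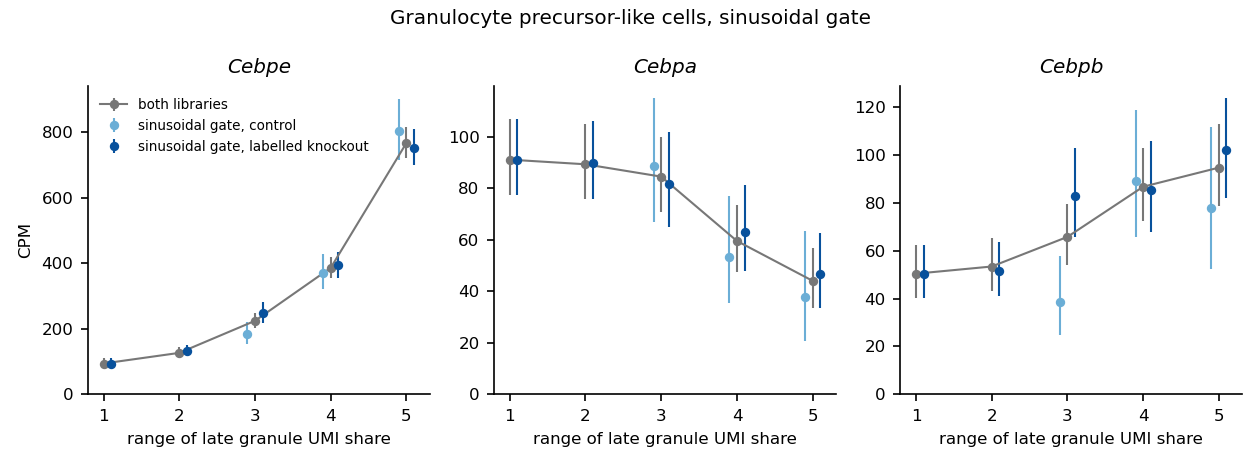
Level in CPM of Cebpe, Cebpa and Cebpb in sinusoidal granulocyte precursor-like cells, over 5 ranges of rising share of late granule UMIs. Grey is both libraries, light blue the control and dark blue the labelled knockout where a range holds at least 20 of its cells; bars are exact Poisson 95% intervals. Cebpe rises from 93.5 to 768 CPM and Cebpa falls from 91.1 to 44.0 CPM. Range 1 holds labelled-knockout cells alone.

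Within ranges Cebpe was not uniformly lower in the labelled knockout. In range 3 it stood at 184 CPM (152 to 221) in 32 control and 249 CPM (218 to 282) in 59 labelled-knockout cells. Range 4 had 371 and 394 CPM, and range 5 had 804 (716 to 901) and 753 CPM (699 to 811). Cebpb in range 3 stood at 38.7 CPM (24.8 to 57.6) and 82.8 CPM (65.9 to 103), intervals that do not overlap, and was close in range 4 at 89.4 and 85.4 CPM. In range 5 it stood at 78 (52.2 to 112) and 102 CPM (82.1 to 124). The first and second ranges held 0 and 3 control cells, so no comparison is made there. Cells of other kinds in the same libraries had a median late granule share of 0.131% in the control and 0.0515% in the labelled knockout, and range 3 began at 0.131%. Those other cells held 3 Cebpe UMIs in the control (5.37 CPM) and 0 in the labelled knockout. The part of such free RNA in the empty first range was not tested.

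Most precursors held UMIs of more than 1 member. Of 456 cells, 62.9% had a Cebpa UMI, 60.1% a Cebpb UMI and 74.8% a Cebpe UMI, and 46.5% had Cebpa and Cebpe together. Thinned to 2000 UMIs these were 10.3%, 12.3%, 39.9% and 2.41%. Among thinned cells Cebpe was seen in 23.4% of the 47 with a Cebpa UMI and 41.8% of the others. Without thinning these shares were 73.9% and 76.3%. Within clusters 7, 8 and 11 they were 98.5% and 97%, 40.8% and 29.4%, and 100% and 96.7% without thinning. Thinned, they were 38.9% and 54.4%, 8% and 11.9%, and 50% and 70.9%. The direction within clusters thus depended on depth, and the thinned shares rest on few cells with a Cebpa UMI.

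The last comparison was in sinusoidal monocyte-like cells, 117 labelled knockout and 169 control. Again none of the 5 members was past 1.5-fold, where 36.0% of 7245 genes were (17.8% higher and 18.2% lower). Cebpb stood at 469 CPM (426 to 515) in the control and 347 CPM (316 to 380) in labelled-knockout cells, a ratio of 0.740 (0.647 to 0.845). Cebpa stood at 104 and 95.2 CPM (0.918, 0.698 to 1.21), Cebpg at 66.3 and 75.4 CPM (1.14), Cebpe at 19.3 and 17.5 CPM (0.910) and Cebpz at 41.7 and 31.2 CPM (0.749, 0.471 to 1.19).

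The median depth was 5412 UMIs per control and 9172 per labelled-knockout cell, and the clusters held differed here too. Nonclassical monocyte-like cluster 14, with the highest Cebpb of all, held 42 control and 5 labelled-knockout cells, and its control cells stood at 1297 CPM (1090 to 1531). Monocyte-like cluster 12 held 17 and 59 cells, at 306 CPM (272 to 342) in labelled-knockout cells. In cluster 9, with 110 and 53 cells, Cebpb stood at 386 CPM in control cells and 427 CPM in labelled-knockout cells. Combined within clusters the log2 ratio was 0.12, the opposite sign to the -0.44 of the class, and without cluster 14 it was -0.11.

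Of 16 measured immediate-early genes 0 were higher and 11 lower, with a median of -0.86 against 0.014 over all genes, Nr4a1, which nonclassical monocytes need, at 154 and 54.1 CPM. Within cluster 9 that list had 2 higher and 0 lower, with a median of 0.057. Of 13 measured regulators of C/EBP 7 were lower, among them the receptor genes Tlr2 (0.409), Csf3r (0.413) and Il6ra (0.466), and within cluster 9 the list had 3 higher and 2 lower of 13. Of 11 primary granule and early myeloid genes 6 were higher and 2 lower, where 17.8% and 18.2% of all genes were, with Ctsg at 142 and 927 CPM, Elane at 440 and 1558 CPM, and Lyz2 (0.568) and Csf1r (0.415) lower. Within cluster 9 that list had 1 higher and 1 lower of 9. Of 10 measured inflammatory genes 0 were higher and 6 lower, Il1b at 83.5 and 18.3 CPM among them, whereas within cluster 9 they were 5 higher and 1 lower of 10. Of 11 stress targets of ATF4 and C/EBPγ 5 were higher and 2 lower, with Gclm higher (3.53, 2.26 to 5.73) and Slc3a2 lower (0.614, 0.465 to 0.809).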

How the data were processed

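The authors deposited whole-number UMI counts, a matrix for each library, per the file headers. Cell Ranger, Seurat and the mouse build mm10 appear in the submitters' processing notes, without versions. Kept were barcodes that had 200 genes or more and less than 10% of UMIs from mitochondria. Cells were clustered with scanpy 1.11.5 in Python 3.11.15 (10000 counts per cell, log1p, 2000 variable genes without the C/EBP genes, 30 components, 15 neighbours, Leiden resolution 1, leidenalg 0.10.2). A cluster took the class with most markers raised 1.5-fold, with at least 3, by a rule set after the clusters were seen. A raised marker was detected in 10% of the cluster's cells, and the fold had 20 CPM added. Ties went to the class with more markers among the 10 leading genes, then the higher mean fold (cluster 0 tied with 8 raised markers for multipotent progenitor and for stem cell). A cluster stayed unnamed where a class outside its broad class had as many raised markers, or more markers among the leading genes, or where most cells were shallow and no marker led. Cluster 8 took its name although F13a1, a monocyte gene, is among its leading genes, and cluster 6 although Pf4, a megakaryocyte gene, leads it. Doublets were kept: Scrublet marked 1 to 6 cells per library, and 9 to 28 held both Xist and Y-linked UMIs.

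UMIs were summed per class or cluster and library and divided by the total (CPM). Sums have exact Poisson, shares exact Clopper-Pearson and ratios exact conditional intervals. A log2 ratio adds 0.5 UMIs. A gene was measured or tested at 20 UMIs over both libraries, and a cluster compared at 20 cells in each. Of each list, up to 3 genes per direction past 1.5-fold with an interval that leaves out 1 could be named. Alternatives changed the cell filter, clustering, depth, weighting, fold and UMI minimum, one at a time. The ratio calculation was tested on simulated data. The members and lists were chosen with earlier results of these data known.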

Additional observations from a re-analysis of the deposited data

Results flagged for a closer look

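Cebpb moved in opposite directions under the same label contrast. Its ratio, labelled knockout over control, was 4.48 in type H progenitor-like cells and 0.740 in sinusoidal monocyte-like cells. The difference was not tested, since each group is 1 library, and the value in monocyte-like cells turned to the other side of 1 when combined within clusters.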

How the results depend on the processing

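No paired analysis was possible because each group has 1 library and the labels give no replicate numbers. The log2 ratio of Cebpb in progenitor-like cells lay between 1.95 and 2.34 over 15 settings. The count of members past 1.5-fold there was 1, and 2 among cells that had Xist but no Y-linked UMIs, where Cebpa joined at 0.88 from 31 UMIs. In granulocyte precursor-like cells it was 0, and 1 when thinned to 2000 UMIs. In monocyte-like cells it was 0, but 1 with the members among the variable genes (Cebpb at -1.14), 1 at Leiden resolution 0.5, 1 with each cell weighted equally (Cebpz both times) and 2 when thinned (Cebpa and Cebpg). Thinning also turned the sign of the log2 ratio of Cebpa (-0.13 to 0.82) and Cebpg (0.18 to -0.84) in monocyte-like and of Cebpz (-0.16 to 0.58) in granulocyte precursor-like cells. These turns rest on few cells. Thinned monocyte-like cells with a UMI were 20 control and 30 labelled knockout for Cebpa, and 23 and 9 for Cebpg. For Cebpz in granulocyte precursor-like cells they were 8 and 46. The sign of Cebpb in monocyte-like cells reversed to 0.12 when combined within clusters. That alternative and the one without cluster 8, which gave -0.15 for Cebpe in granulocyte precursor-like cells, were chosen after seeing the data. The level of Cebpe in its highest cluster was 463 CPM at resolution 0.5. With the members among the variable genes, a cluster led by F13a1 was named monocyte-like, with 8 raised markers against 4 of early granulocyte precursor. It held 24 control and 168 labelled-knockout cells of the sinusoidal gate. F13a1, BC035044 and Bex6 are among the leading genes of both that cluster and cluster 8. The class of such cells thus depended on the setting. The share of genes past the fold was 2.11%, 6.02% and 15.3% at 2-fold and 3.1%, 9.23% and 29.5% with at least 100 UMIs. Median-of-ratios scaling moved all ratios by 0.062, -0.044 and 0.0086 in the 3 comparisons. The ratio of Cebpe in progenitor-like cells, from 1 control and 3 labelled-knockout UMIs, could not be told from 1 at this depth.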
